A study of Mus musculus with 9 samples.

Results

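This account follows 10 genes that mark or specify the deep layers of the cerebral cortex (layers 5 and 6) and the subplate beneath them, in the cortex of mouse embryos that carry mutant alleles of Cyfip2. The 10 genes, Bcl11b, Fezf2, Tbr1, Sox5, Foxp2, Tle4, Nxph3, Ldb2, Crym and Nr4a2, were picked by name from 18820 genes in the deposited table, and all 10 were found and passed the filter on low values. RNA from the cortex of C57BL/6J embryos at embryonic day 18.5 was sequenced from 3 wild-type (WT), 3 heterozygous Cyfip2 (Het) and 3 Cyfip2 knockout (KO) libraries, with no treatment named. The Cyfip2 protein belongs to the WAVE complex, a driver of branched actin assembly. The labels do not describe the mutant allele or the promoter of any Cre line. They also do not say whether each library came from 1 embryo or from pooled embryos, so the p-values measure only the spread between these libraries. Part of that spread may be technical. Libraries of the same genotype differed in sex or in markers of other tissue, as given below, so they were not all repeats of the same RNA.

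Neurons of the cortex are born in order, with the deep layers and subplate before the upper layers. Layer 5 neurons that project to the spinal cord depend on the zinc finger factors Fezf2 and Bcl11b (also called Ctip2), while layer 6 neurons that project to the thalamus depend on the T-box factor Tbr1, and Sox5 separates layer 6 and subplate from layer 5. Several of the 10 genes are also used outside the cortex: Bcl11b and Foxp2 are prominent in striatal projection neurons, Bcl11b in hippocampal neurons and Tbr1 in mitral cells of the olfactory bulb.

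The windows of 250 bases before the transcription start were available for 6 of the 10 genes, in 7 windows, from RefSeq (GRCm38.p6); Foxp2, Nxph3, Ldb2 and Crym had no entry. The 2 that lie outside every annotated gene are shown, because they belong to the gene that differed most between libraries (Nr4a2) and to the one whose WT libraries lay closest together (Tle4). Capitals mark every match on either strand to the motifs AAAGGTCA (the NBRE site of NR4A receptors), TCACACCT (T-box element), AACAAT (SOX core), TGTTTAC (forkhead site), TATAAA (a core promoter box), TGACGTCA (CRE), CCAAT (bound by NF-Y) and CANNTG (E-box). No matches overlap in these 2 windows, which lie on the minus strand and are written 5′ to 3′ along the gene.
Nr4a2, chr2:57124004-57124253: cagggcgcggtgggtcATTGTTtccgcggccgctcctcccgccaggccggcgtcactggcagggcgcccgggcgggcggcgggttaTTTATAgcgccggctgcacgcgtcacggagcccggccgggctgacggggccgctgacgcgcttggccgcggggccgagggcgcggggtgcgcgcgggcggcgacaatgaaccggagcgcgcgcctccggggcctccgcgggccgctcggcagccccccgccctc
Tle4, chr19:14598184-14598433: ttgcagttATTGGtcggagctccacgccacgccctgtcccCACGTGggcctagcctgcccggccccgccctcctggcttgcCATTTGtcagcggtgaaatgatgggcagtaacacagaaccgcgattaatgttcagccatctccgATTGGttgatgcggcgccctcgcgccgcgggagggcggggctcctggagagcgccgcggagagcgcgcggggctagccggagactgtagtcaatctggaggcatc
The Nr4a2 window held 1 SOX core, ATTGTT, on the strand opposite the gene, at 234 to 229 bases before the start. It also held 1 match to the core promoter box, TTTATA, on that same strand at 164 to 159 bases before the start. The Tle4 window held 2 CCAAT boxes on the opposite strand and 2 E-boxes, CACGTG and CATTTG. Among 32851 RefSeq promoter windows of the same length, 9.42% held the SOX core, 12.4% the core promoter box, 33.8% the CCAAT box and 66.2% an E-box. The Nr4a2 window was 80.0% G or C with 44 CpG pairs and the Tle4 window 65.2% with 24, beside medians of 52.4% and 6 over all windows. A match is only a run of letters, and a motif with no match says nothing of the factor.

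Facts of the libraries that touch these genes come first. Cyfip2 itself stood at 10169, 10344 and 11174 normalized counts in WT, 8969, 9779 and 9882 in Het, and 7900, 7522 and 8255 in KO. The genotypes did not overlap, and KO held 74.7% of the WT mean (exact permutation p = 0.10 for each pair of genotypes, two-sided, the smallest that 3 against 3 allows). The deposited values are already scaled to nearly equal totals, 36.0 to 38.6 M per library, and the step between low values puts the depth at about 29.5 to 54.4 M reads. The labelled cortex was borne out by the cortical neuron gene Neurod6, which lay between 19275 and 32658 in the 9 libraries. Markers of other tissue were uneven between libraries. Cdhr1, a mitral cell marker of the olfactory bulb, was high in 4 libraries: replicate 3 of WT (2230), replicate 1 of Het (3436) and replicates 1 and 2 of KO (3237 and 2138). It was at most 53.1 in the others. The olfactory bulb markers Tbx21, Th and Barhl2 were also higher in those 4 libraries than in any other. The markers Doc2g, Nmb and Shisa3 did not follow this split. Doc2g was highest in Het replicate 2 (745) and Nmb in KO replicate 3 (104). Shisa3 was lower in Het replicate 1 (19.1) than in WT replicate 1 (30.3). The 11 markers of the meninges summed to 558 in Het replicate 3 and to 10404 or more in every other library. The 6 choroid plexus markers summed to 11673 in Het replicate 2 and 3432 in WT replicate 2, and to at most 791 elsewhere. Het replicate 1 and KO replicates 1 and 2 were also female by the Y-linked gene Ddx3y (listed at 0), while the other 6 were male.

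None of the 10 genes passed the test for a difference between genotypes after adjustment. With limma, fitted over all 9 libraries on log2(value + 1) and adjusted over 15069 tested genes (Benjamini-Hochberg, threshold 0.05), 0 of 10 were called in KO against WT, in Het against WT or in KO against Het. The background was the same, with 0% of all tested genes called in each comparison. Cyfip2, whose genotypes did not overlap, was not called either. Its KO against WT log2 fold change was -0.42 ± 0.06 (SE, unadjusted p = 9.0e-05, adjusted p = 0.678, limma). A lack of calls here thus does not show a lack of difference. At an unadjusted p under 0.05, 0 of 10 stood out in KO against WT (background 178 genes, 1.18%) and 0 of 10 in Het against WT (background 242 genes, 1.61%). In KO against Het, 2 of 10 did, Sox5 and Nxph3, both lower (background 541 genes, 3.59%, in either direction and 2.17% lower). In bulk tissue, fewer cells of a type and less RNA per cell cannot be told apart.

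**Figure D1:**
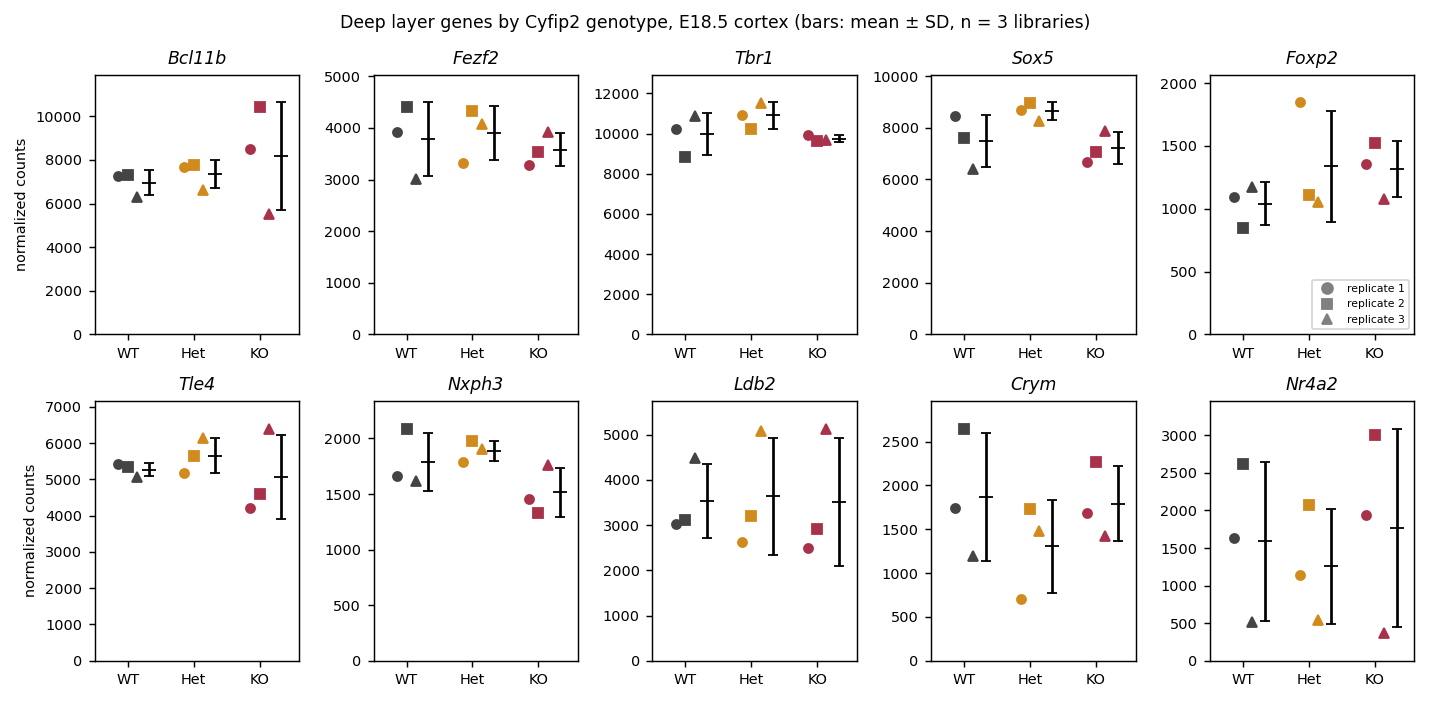
Normalized counts (y axis, from 0) of the 10 genes in each library by genotype (x axis), with the marker shape giving the replicate number and black bars the mean ± SD of 3 libraries. The 3 genotypes overlap in every panel except KO against Het for Tbr1, Sox5 and Nxph3, and Nr4a2 spans 374 to 2998.

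Fezf2 (ENSMUSG00000021743; chromosome 14, 12342094 to 12348189, minus strand, GRCm38) is the master regulator of subcortically projecting layer 5 neurons. Its normalized counts were 3930, 4410 and 3015 in WT, 3319, 4321 and 4071 in Het, and 3284, 3525 and 3913 in KO. WT replicate 3 was the lowest library and WT replicate 2 the highest, so the WT range enclosed both mutant genotypes. The log2 fold change was -0.07 ± 0.15 (limma SE) in KO against WT and 0.05 ± 0.15 in Het against WT.

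Bcl11b (ENSMUSG00000048251; chromosome 12, 107910403 to 108003602, minus strand) acts downstream of Fezf2 in axon growth towards the spinal cord. Its counts were 7252, 7314 and 6301 in WT, 7661, 7778 and 6642 in Het, and 8509, 10444 and 5531 in KO. The KO libraries held both the highest and the lowest value of the 9, and the KO SD of 2475 was larger than that of WT (568) or Het (625). The KO against WT log2 fold change was 0.19 ± 0.20 (95% interval -0.27 to 0.64, limma). Without KO replicate 2 it was -0.02, without KO replicate 3 it was 0.44, and with sex as a covariate it was -0.10. All WT libraries were male, so the fit with sex took the sex difference from the mutant libraries alone.

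The striatum and hippocampus also make Bcl11b. The 14 striatal markers, none at 0, summed to 3686, 2750.1 and 4379.9 in the WT libraries, to 5865, 3327 and 3525 in Het and to 4722, 6193 and 3888 in KO. Among the KO libraries the sum was lowest in replicate 3 and highest in replicate 2, like Bcl11b. Over all 9 libraries, however, the lowest sum was that of WT replicate 2. Within WT and Het the library with the highest sum was not the one with the most Bcl11b. Of the 14 genes, 11 were lowest in KO replicate 3 among the KO libraries, and 3 (Drd1, Rgs9 and Ppp1r1b) were highest there. With the striatal score, the mean centred log2 level of the list, as a covariate, the KO against WT fold change of Bcl11b was 0.04 and the KO against Het value was -0.0019, in place of 0.10. Of 5 hippocampal markers, none at 0, 4 were lowest in KO replicate 3 among the KO libraries and Grp was highest there. Their sum, most of it Zbtb20, was 12885, 16384 and 6401 in KO, with ranges of 8029 to 14204 in WT and 8954 to 15067 in Het, and its part in the Bcl11b values was not tested.

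**Figure D2:**
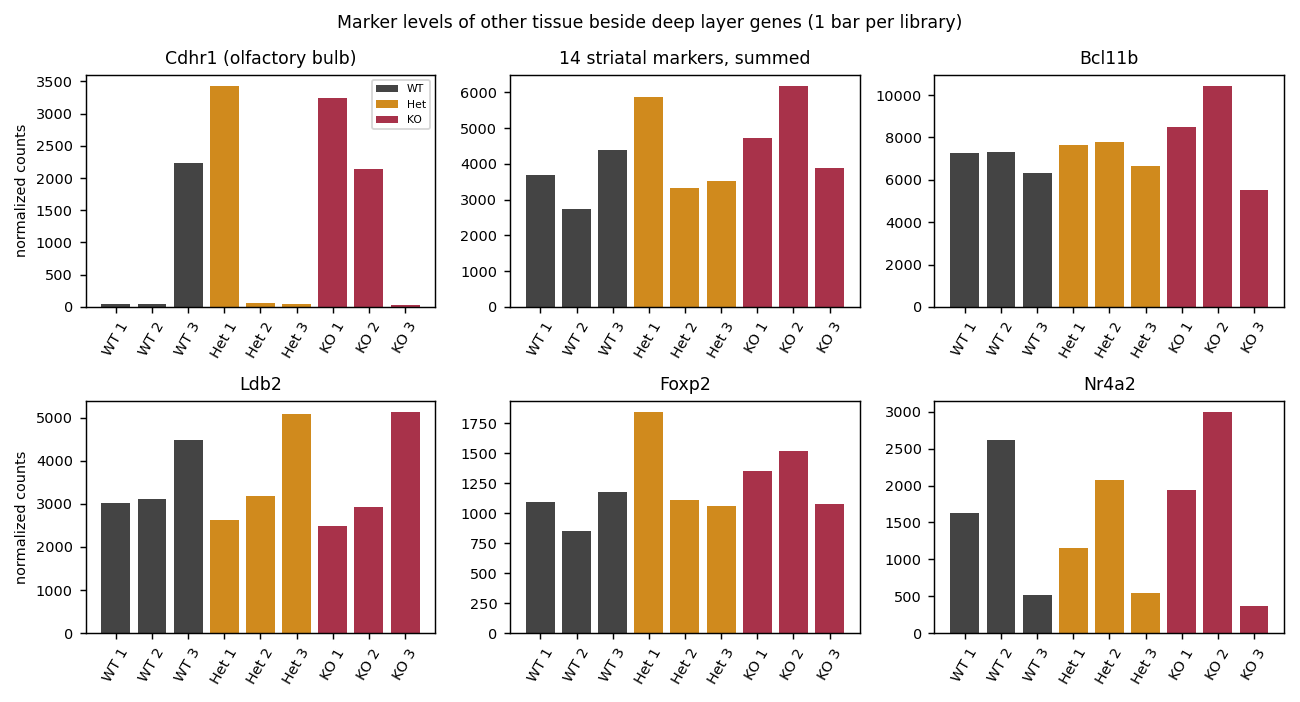
Normalized counts (y axes, from 0) in each of the 9 libraries (x axis, coloured by genotype) for the olfactory bulb marker Cdhr1, the sum of 14 striatal markers and the deep layer genes Bcl11b, Ldb2, Foxp2 and Nr4a2. KO replicate 3 is the highest library for Ldb2 (5130) and the lowest for Bcl11b (5531) and Nr4a2 (374).

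Tbr1 (ENSMUSG00000035033; chromosome 2, 61802930 to 61814114, plus strand) specifies layer 6 and represses Fezf2 and Bcl11b there. Its counts were 10246, 8835 and 10882 in WT, 10924, 10240 and 11543 in Het, and 9948, 9632 and 9681 in KO. It was the steadiest of the 10 genes, with a highest to lowest ratio of 1.31, and the 3 KO libraries had a mean of 9753 ± 170 (SD, n = 3). All KO libraries were below all Het libraries, while the WT range enclosed the KO values. The KO against Het log2 fold change was -0.16 ± 0.08 (95% interval -0.34 to 0.02; adjusted p = 0.942, limma), and that of KO against WT was -0.03 ± 0.08. Mitral cells also make Tbr1. The 7 olfactory bulb markers summed to 3295 in replicate 3 of WT, to 4501 in replicate 1 of Het, to 4236 and 3179 in replicates 1 and 2 of KO, and to at most 960.5 elsewhere, and only WT replicate 1 had a marker at 0, Th. Without those 4 libraries the KO against Het value was -0.17, with 1 KO library left, which the fit takes to vary like the others.

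Sox5 (ENSMUSG00000041540; chromosome 6, 143828425 to 144781977, minus strand) is the factor that separates layer 6 and subplate neurons from those of layer 5. Its counts were 8441, 7602 and 6412 in WT, 8701, 8941 and 8253 in Het, and 6667, 7079 and 7890 in KO. Every KO library lay below every Het library, and the WT libraries spread across both. The KO against Het log2 fold change was -0.26 ± 0.10 (95% interval -0.49 to -0.03, unadjusted p = 0.031, adjusted p = 0.942, limma), and the Het against WT value was 0.21 ± 0.10 (adjusted p = 0.9998), or 0.11 without WT replicate 3. It was -0.12 in KO against Het without the 4 libraries that held olfactory bulb RNA. An annotated antisense gene, Sox5os1, overlaps 9.25% of the merged Sox5 exons, and no source used here states whether reads were counted by strand, so reads of this pair cannot be told apart with certainty.

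Foxp2 (ENSMUSG00000029563; chromosome 6, 14901349 to 15441977, plus strand), a forkhead factor, marks layer 6 neurons and is also made in the striatum. Its counts were 1092, 850 and 1176 in WT, 1846, 1110 and 1058 in Het, and 1356, 1522 and 1080 in KO. The 3 highest libraries were Het replicate 1 and KO replicates 1 and 2, the same 3 that had the highest summed striatal markers (5865, 4722 and 6193). These 3 were also the female libraries and were among the 4 with high Cdhr1. They had the highest summed meninges markers as well (18712, 22889 and 15883). Sex and the different tissues therefore cannot be told apart here. The log2 fold change was 0.34 ± 0.23 in KO against WT and 0.33 ± 0.23 in Het against WT, both with an adjusted p = 0.9998 by limma. The Het against WT value rested on 1 library and was 0.073 without Het replicate 1 and 0.19 without WT replicate 2, and the KO against WT value was 0.20 without WT replicate 2. Without the 4 libraries with olfactory bulb RNA the KO against Het value was -0.0042, while the KO against WT value was 0.16 with the striatal score and -0.05 with sex as a covariate.

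Tle4 (ENSMUSG00000024642; chromosome 19, 14448150 to 14598051, minus strand) is a Groucho-type corepressor of layer 6 corticothalamic neurons. Its counts were 5423, 5330 and 5068 in WT, 5172, 5648 and 6138 in Het, and 4215, 4590 and 6400 in KO. The WT libraries lay within a CV of 3.49%, while the KO libraries split, with replicates 1 and 2 below and replicate 3 above all other libraries. The log2 fold change was -0.08 ± 0.14 in KO against WT and 0.04 without KO replicate 1. Of 8 general markers of cortical excitatory neurons, none at 0, 3 (Neurod2, Neurod6 and Bcl11a) were highest in KO replicate 3 among the KO libraries and 2 (Neurod1 and Slc17a7) were lowest there. Their sum, most of it Neurod6, Neurod2 and Bcl11a, was 53559, 52725 and 70020 in KO, 61684 to 62169 in WT and 62194 to 65732 in Het. The mean centred log2 level of the same list went the other way in KO, at 0.029, 0.11 and -0.10. The part of these markers in the Tle4 values was not tested.

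Nr4a2 (ENSMUSG00000026826; chromosome 2, 57106830 to 57124003, minus strand) is an orphan nuclear receptor (Nurr1) that marks the subplate, layer 6b and the claustrum and is also induced by neuronal activity. Its counts were 1630, 2623 and 515 in WT, 1148, 2073 and 545 in Het, and 1934, 2998 and 374 in KO. It varied most of the 10, by 8.01-fold between the highest and the lowest library. In each genotype replicate 3 was the lowest and replicate 2 the highest, so that the spread within a genotype repeated across all 3. Among 5 hippocampal markers, only Zbtb20 was lowest in replicate 3 and highest in replicate 2 of every genotype, and Grp was highest in replicate 3 of each. The order was not particular to Nr4a2, as Bcl11b and Neurod1 also had it in every genotype. So did the sum of 5 Cajal-Retzius cell markers, most of it Reln. That sum was 15445, 17882 and 15020 in WT, 15490, 18117 and 12156 in Het, and 19087, 19435 and 10763 in KO. The progenitor marker sum was lowest in replicate 3 of each genotype, but highest in replicate 2 only in Het. The part of hippocampal or other tissue in the Nr4a2 values was not tested. The log2 fold change was -0.0068 ± 0.87 (SE) in KO against WT, with a 95% interval from -1.98 to 1.97 that was wider than that of any other of the 10 genes. With the replicate number as a block, the SE was 0.22. Each of 12 other immediate early genes had a smaller ratio of highest to lowest library, from 1.29 for Dusp1 to 4.19 for Egr2, whose highest value was 13.3. The related receptor Nr4a3, picked after its values were seen, ranged from 2301 to 4966. The genes whose log2 values followed Nr4a2 most closely over the 9 libraries were the desmosomal cadherin Dsc3 (Pearson r = 0.99, as a description) and the phosphatase Dusp1 (r = 0.98), which is on the immediate early list and had its lowest value, 867, in WT replicate 3 and its highest, 1115, in KO replicate 2. Dsc3 had its lowest value, 7.95, in KO replicate 3 and its highest, 236, in WT replicate 2.

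Nxph3 (ENSMUSG00000046719; chromosome 11, 95509845 to 95514570, minus strand) encodes neurexophilin 3, a secreted ligand of alpha-neurexins found in layer 6b. Its counts were 1660, 2088 and 1620 in WT, 1792, 1973 and 1902 in Het, and 1457, 1326 and 1758 in KO. All KO libraries lay below all Het libraries, the narrowest gap being 1758 against 1792. Its KO against Het log2 fold change was -0.33 ± 0.12 (95% interval -0.61 to -0.04, unadjusted p = 0.028, adjusted p = 0.942, limma), and its KO against WT value was -0.24 ± 0.12 (95% interval -0.53 to 0.04), or -0.13 without WT replicate 2. Without the 4 libraries with olfactory bulb RNA the KO against Het value was -0.14.

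Ldb2 (ENSMUSG00000039706; chromosome 5, 44472132 to 44799680, minus strand) encodes a cofactor of LIM domain transcription factors and marks corticospinal neurons. Its counts were 3014, 3118 and 4478 in WT, 2619, 3192 and 5089 in Het, and 2484, 2918 and 5130 in KO. Replicate 3 was the highest library of each genotype, where Nr4a2 was the lowest. Only 0.598% of the log2 variance of Ldb2 lay between genotypes, and the KO against WT log2 fold change was -0.06 ± 0.32. It was 0.74 without the 4 libraries with olfactory bulb RNA, a comparison that left 1 KO library, KO replicate 3.

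Crym (ENSMUSG00000030905; chromosome 7, 120186380 to 120202111, minus strand) encodes mu-crystallin, which binds thyroid hormone and marks corticospinal neurons. Its counts were 1743, 2648 and 1201 in WT, 706, 1727 and 1481 in Het, and 1681, 2266 and 1429 in KO. The lowest value belonged to Het replicate 1, and the other 2 Het libraries lay inside the WT range. The Het against WT log2 fold change was -0.54 ± 0.38 (95% interval -1.40 to 0.32; adjusted p = 0.9998, limma), and the KO against WT value was -0.0091 ± 0.38. The Het against WT value was -0.15 without Het replicate 1, -0.25 without WT replicate 2 and -0.82 without WT replicate 3.

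**Figure D3:**
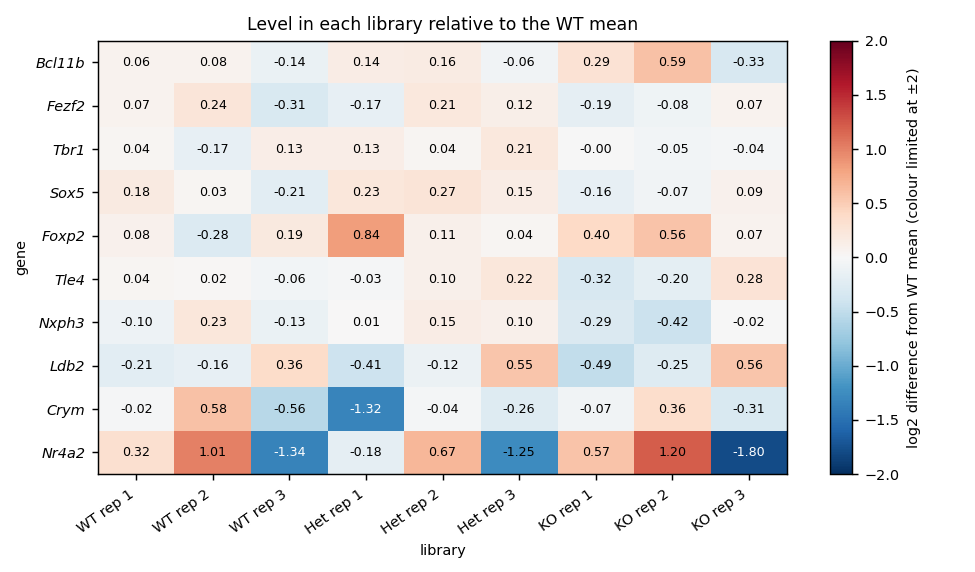
Level of each gene (rows) in each library (columns) as the log2 difference from the mean of the 3 WT libraries, printed in each cell, with red above and blue below that mean. Among the KO libraries, Nr4a2 runs from -1.80 (replicate 3) to 1.20 (replicate 2), and Ldb2 from -0.49 (replicate 1) to 0.56 (replicate 3).

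Across the 10 genes, the median log2 fold change was -0.04 in KO against WT, where 2 of 10 were above 0 (48.4% of all tested genes were). It was 0.08 in Het against WT, where 8 of 10 were above 0 (background 46.2%), and -0.09 in KO against Het, where 4 of 10 were above 0 (background 50.4%). The medians over all tested genes were -0.0042, -0.0099 and 0.0016. These comparisons share libraries pairwise, so their directions are not independent of each other. No gene had KO and WT libraries that did not overlap (background 6.46%), and none had Het and WT libraries apart (background 6.67%). In KO against Het, 3 of 10 were apart, Tbr1, Sox5 and Nxph3, all lower in KO (background 7.82% in either direction and 4.68% lower). Without KO replicate 3, 5 of 10 genes had KO and WT libraries apart, Bcl11b and Foxp2 higher and Tle4, Nxph3 and Ldb2 lower, where 29.5% of all tested genes were apart.

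**Figure D4:**
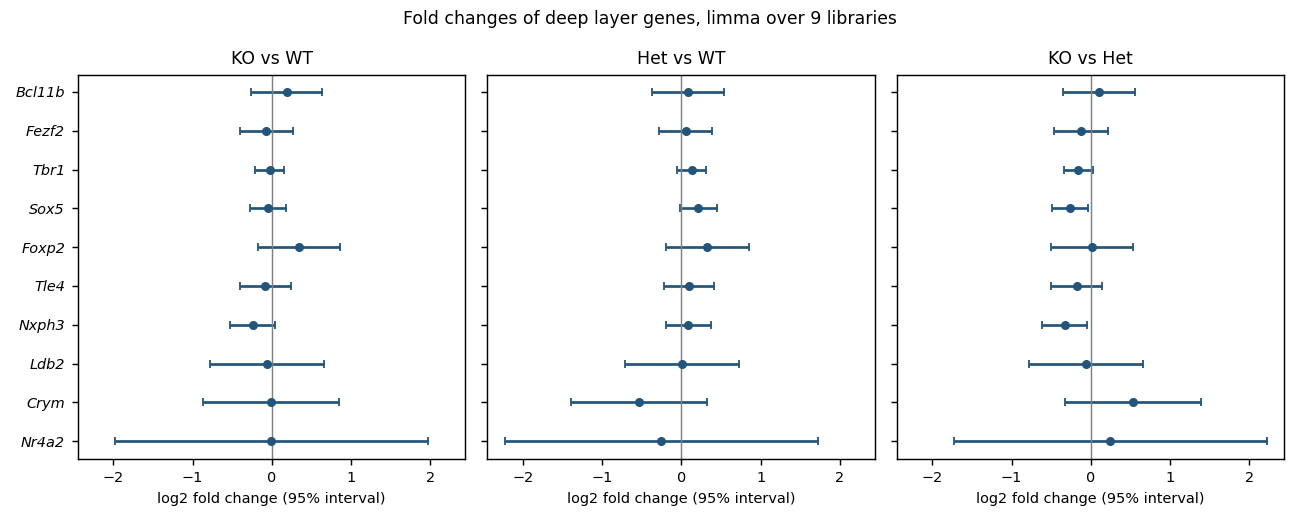
Log2 fold changes (x axis) of the 10 genes (y axis) in the 3 comparisons, with points for the limma estimate and bars for its 95% interval. The interval spans 0 for every gene except Sox5 and Nxph3 in KO against Het, and it is widest for Nr4a2 (-1.98 to 1.97 in KO against WT).

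The genes differed in how much they varied at all. The SD of the log2 values over the 9 libraries ran from 0.12 for Tbr1 to 1.11 for Nr4a2, with a median of 0.24 over the 10 genes and 0.14 over all tested genes. A median of 20.2% of the log2 variance of the 10 genes lay between genotypes, against 17.0% for all tested genes. The shares were largest for Sox5 (49.9%), Nxph3 (49.5%) and Tbr1 (40.2%), the 3 genes that separated KO from Het. The shares and that separation come from the same values, so they are not separate evidence. With 3 libraries per genotype, a share above 0 also arises from the spread between libraries alone.

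The 10 genes did not move as 1 block across libraries. Of their 45 pairs, 10 had a Pearson r above 0.5 over the 9 libraries and 10 had one below -0.5, with a median of -0.02, as a description of libraries that also differ in tissue content. Bcl11b and Nr4a2 went together (r = 0.85), as did Tle4 and Ldb2 (r = 0.74), Tle4 and Nxph3 (r = 0.69) and Fezf2 and Nxph3 (r = 0.68). KO replicate 3 shows the contrast: Ldb2 stood 0.56 and Tle4 0.28 above the WT mean on the log2 scale, and Bcl11b was at -0.33 and Nr4a2 at -1.80.

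Among all tested genes, those whose pattern over the 9 libraries was most like each member differed between members. For Bcl11b these were Sox9 (r = 0.97) and Pcyox1l (r = 0.97), for Fezf2 the factor Tcf4 (r = 0.96) and Kalrn (r = 0.96), and for Sox5 Usp47 (r = 0.96). Tle4 was most like Gpm6a (r = 0.97) and the cortical repressor Zbtb18 (r = 0.97), and Ldb2 most like B4galnt1 (r = 0.99) and Phactr1 (r = 0.99). For Crym they were Fosl2 (r = 0.97) and Dnajc6 (r = 0.96), and for Nxph3 Nadk (r = 0.95) and Psmd3 (r = 0.95). Tbr1 had the less close matches Anapc4 (r = 0.93) and Kcnh2 (r = 0.90), and Foxp2 had Kcna3 (r = 0.92) and Rtkn (r = 0.92).

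Levels between genes can be set side by side only per exon length. In normalized counts per kilobase of merged exons (mean ± SD over the 9 libraries), Tbr1 was highest at 1862 ± 149, followed by Fezf2 at 1232 ± 161, Ldb2 at 1067 ± 313, Tle4 at 935 ± 121, Bcl11b at 924 ± 174 and Nxph3 at 825 ± 116. Below them came Sox5 at 541 ± 62.7, Crym at 488 ± 167, Nr4a2 at 379 ± 235 and Foxp2 at 75.4 ± 18.3. Only 2 neighbouring pairs in this order had separate ranges over the 9 libraries: Tbr1 (lowest 1610) over Fezf2 (highest 1447), and Nxph3 (lowest 632) over Sox5 (highest 622). From Fezf2 to Nxph3, and from Sox5 to Foxp2, the range of each gene overlapped that of the next, although Nr4a2 was above Foxp2 within each library. The exons of Sox5 and Foxp2 add up to 14376 and 16346 bases over all annotated transcripts, so their levels per length are low where shorter transcripts are used.

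**Figure D5:**
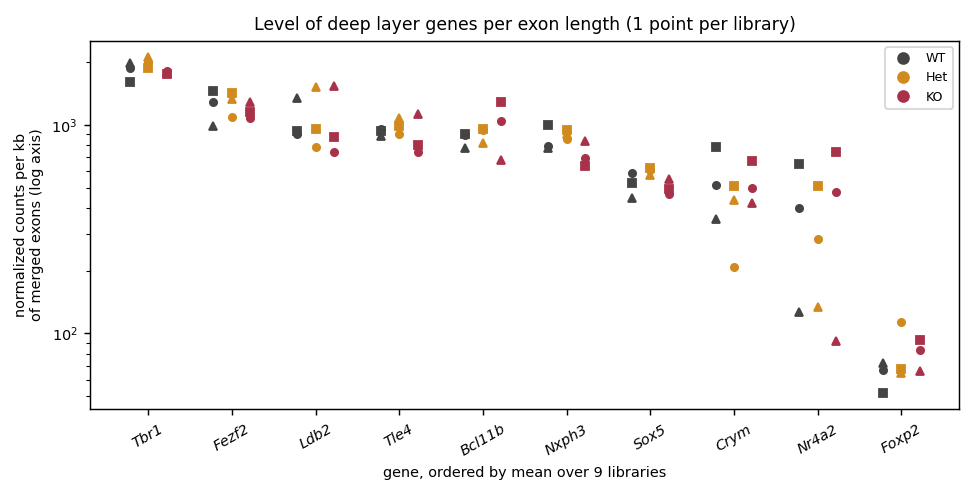
Normalized counts per kilobase of merged exons (y axis, log scale) for the 10 genes (x axis, ordered by mean), 1 point per library, coloured by genotype. Tbr1 lies above 1610 in all 9 libraries, and Foxp2 lies between 52.0 and 113.

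A longer list of 23 other genes of layers 5, 6 and the subplate had 0 of 23 called in any of the 3 comparisons by limma. In KO against WT, 9 had positive and 14 negative fold changes, with a median of -0.02 (median of all tested genes -0.0042), and 0 had an unadjusted p under 0.05. The 3 with the smallest p were Pcp4, a calmodulin-binding protein of layer 5 (log2 fold change -0.26 ± 0.14), the layer 5 factor Etv1 (0.33 ± 0.24), and Hs3st4, a heparan sulfate sulfotransferase of layer 6 (-0.31 ± 0.25). Leaving out 1 library moved Pcp4 to -0.098 (KO replicate 3), Etv1 to 0.19 or 0.59 (WT replicate 2 or 3) and Hs3st4 to -0.66 or -0.13 (KO replicate 3 or 1). In Het against WT, 12 of the 23 were positive, and 3 had all Het libraries below all WT libraries, Pcp4, Lmo3 and Ccn2 (background 3.31% lower). Of these only Ccn2, a subplate marker, had an unadjusted p under 0.05 (background 0.644% lower). Hs3st4 was split among the KO libraries like Tle4, with 1714 and 1750 in replicates 1 and 2 and 3601 in replicate 3.

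Of 24 regulators that set or oppose deep layer fate, 0 were called in any comparison by limma. In KO against WT, 9 were positive and 15 negative (median -0.03), and the smallest p values belonged to the forkhead factor Foxp1 (0.32 ± 0.14), the deacetylase Hdac2 (-0.07 ± 0.05) and the repressor Zbtb18 (-0.21 ± 0.17). Without KO replicate 1, Foxp1 was at 0.49 and Zbtb18 at -0.071, Zbtb18 was at -0.42 without KO replicate 3, and Hdac2 ran from -0.11 to -0.035 without WT replicate 2 or 1. In Het against WT, 22 of 24 were positive (median 0.10; 46.2% of all tested genes were positive), and in KO against Het 6 of 24 were (median -0.11; background 50.4%). In that last comparison, 3 of 24 had all KO libraries below all Het libraries (background 4.68% lower) and 0 had them above. An unadjusted p under 0.05 by limma was reached by 2 of 24, both lower (background 2.17% lower).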

How the data were processed

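RNA from 9 cortex libraries was prepared with a stranded mRNA kit, per the labels' protocols. The deposited table gives a signal for each of 18820 genes: gene counts that the authors scaled per library, as its name and fractional values show. Tools named in the submitters' processing notes are DESeq2 1.19.11, R 3.6.0 and Salmon 0.11.2, with GRCm38 as the build and no roles stated; the gene filter and strand setting are not given in the sources used here. Low values clustered near multiples of a step worth about 1 read: of those below 6, 60.8% to 78.2% were no more than 0.1 from a whole step, too few to recover reads, so no count test was run. Groups and replicate numbers came from sample titles.

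Values were taken as log2(value + 1) for genes averaging 10 or more over the libraries (15069), and limma 3.58.1 in R 4.3.3 (eBayes with trend, two-sided) fitted 1 mean per genotype over all 9 libraries. Fold changes on this scale understate those of low genes. The script was tested on simulated data. Symbols matched 18783 IDs, and coordinates and exons came from GENCODE M21 (GRCm38). The members and lists were chosen with earlier results of these data known. The design allowed for counts or normalized values, and the test for the latter was used. Named genes are the 10 members, the 3 smallest p values in KO against WT from each of 2 wider lists, the 2 genes most like each member, and Cyfip2; genes outside this rule, such as Cdhr1, Grp, Lmo3 and Ccn2, were named after their values were seen, and 1 gene that the rule names is not reported here. Alternatives covered pseudocounts, filters, rescaling, covariates, the replicate block and left-out libraries.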

Additional observations from a re-analysis of the deposited data

How the results depend on the processing

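No member passed the adjusted threshold of 0.05 (limma) under any alternative run, and none of the sign changes below involved a called value. With the replicate block, 0 genes and 0 members were called in each comparison and the median member log2 fold changes stayed at -0.04, 0.08 and -0.09. The block changed the SE in KO against WT. It fell from 0.87 to 0.22 for Nr4a2 and from 0.32 to 0.088 for Ldb2, and rose slightly for Sox5 and Nxph3. The replicate numbers are not shown to pair the libraries, and not every library correlated best with its own number. Residual correlations ran from -0.07 to 0.47 for same-numbered libraries and from -0.46 to 0.17 for the others. With only the 2 groups compared, 1 gene was called in Het against WT (Gm3650) and 1 in KO against Het (Lenep).

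These log2 fold changes changed sign, and the cause was not tested. With quantile rescaling, KO against WT gave Crym 0.0081 and Nr4a2 0.033, and Het against WT gave Ldb2 -0.015. With upper-quartile rescaling the same 3 were 0.0015, 0.0038 and -0.0063. The fit with sex took the sex difference from the mutant libraries alone, because all WT libraries were male and KO replicate 3 was the only male KO library. With sex as a covariate, KO against WT gave Bcl11b -0.10, Fezf2 0.11, Sox5 0.013, Foxp2 -0.050, Tle4 0.16, Ldb2 0.46, Crym 0.23, Hs3st4 0.042 and Zbtb18 0.081. Het against WT gave Bcl11b -0.062, and KO against Het gave Bcl11b -0.039, Foxp2 -0.18, Ldb2 0.19 and Nr4a2 -0.22. With the olfactory bulb score as a covariate, KO against WT gave Fezf2 0.042, Sox5 0.0099, Tle4 0.012, Ldb2 0.058 and Crym 0.16, and KO against Het gave Foxp2 -0.12 and Ldb2 0.037. With the striatal score as a covariate, KO against WT gave Fezf2 0.0067, Tle4 0.029, Ldb2 0.19 and Crym 0.073, and KO against Het gave Bcl11b -0.0019, Foxp2 -0.12, Ldb2 0.11 and Nr4a2 -0.11. Without the 4 libraries with olfactory bulb RNA, which leaves 1 KO library, KO against WT gave Bcl11b -0.40, Tbr1 0.025, Tle4 0.25, Ldb2 0.74, Hs3st4 0.45 and Zbtb18 0.19. Het against WT gave Bcl11b -0.019 with 3 members not overlapping (31.9% of all genes were), and KO against Het gave Bcl11b -0.38, Foxp2 -0.0042, Tle4 0.12, Ldb2 0.35, Crym -0.16 and Nr4a2 -1.50.

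Leaving out 1 library at a time gave 0 to 1 genes called in each comparison (Gm3650, Lenep or Gm14288). Members not overlapping ran from 0 to 5 in KO against WT, 0 to 2 in Het against WT and 3 to 5 in KO against Het, with 29.5%, 21.9% and 27.3% of all genes not overlapping at the highest counts (without KO replicate 3, Het replicate 3 and KO replicate 3). The median ran from -0.13 to 0.015 in KO against WT and from -0.20 to -0.050 in KO against Het. In KO against WT, the ranges that crossed 0 were -0.16 to 0.043 for Sox5, -0.67 to 0.89 for Nr4a2, -0.22 to 0.050 for Fezf2, -0.29 to 0.28 for Crym, -0.11 to 0.036 for Tbr1, -0.37 to 0.15 for Ldb2, -0.26 to 0.04 for Tle4 and -0.017 to 0.44 for Bcl11b. In Het against WT they were -0.27 to 0.21 for Ldb2, -0.92 to 0.25 for Nr4a2 and -0.10 to 0.17 for Fezf2. In KO against Het they were -0.13 to 0.27 for Foxp2, -0.37 to 0.21 for Ldb2, -0.36 to 1.14 for Nr4a2 and -0.10 to 0.36 for Bcl11b. The lowest value of a member in any library was 374 normalized counts, and counting error was not estimated beside the spread between libraries.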
